A study of Mus musculus with 30 samples.

Results

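The 10 genes studied here belong to the noncollagenous extracellular matrix and its crosslinking, and were followed through all 9 treatment groups of a mouse tail fibroblast experiment. They were chosen by symbol and role, through their Ensembl gene identifiers: the glycoproteins Fn1, Sparc, Postn and Tnc, the elastic fibre genes Eln and Fbn1, the lysyl oxidases Lox and Loxl1, and the proteoglycans Dcn and Lum. They make 10 of the 29861 genes in the deposited table, and all 10 passed the filter that left 13644 genes for testing. The study screened small molecules for effects on cellular stress resistance and on the NRF2 pathway. All libraries came from CCG-HTA-1, a primary tail fibroblast line of UMHet3 mice (a genetically mixed stock), at passage 4 and about 80% confluence, with agents added 24 hours after plating and RNA taken 48 hours later. The donor mice were 5 to 8 weeks old by the labels, except that Dihydrorotenone replicate 1 carries the label 8 to 11 weeks.

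The solvent DMSO had 6 libraries, of which replicates 4 to 6 carry their replicate number in the agent label, and each compound had 3. Antimycin A blocks respiratory complex III, and Dihydrorotenone, a relative of rotenone, blocks complex I. Diphenyleneiodonium Cl inhibits flavin enzymes, Cardamonin is a plant chalcone, and the agent labelled BerberineA bears the name of a plant alkaloid. Clofilium tosylate blocks potassium channels, AEG 3482 is known as an inhibitor of apoptosis signalling, and Podofilox (podophyllotoxin) prevents tubulin polymerisation. Doses were not given in the sources used here. Because 1 cell line was used and nothing states separate animals, p-values measure the spread between libraries, which may be technical. The library numbers run consecutively within each group, so a batch by library number and a treatment cannot be told apart.

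Fibronectin forms a fibrillar scaffold that cells pull on through integrins and on which other matrix proteins are laid down, while periostin, tenascin C and SPARC are matricellular proteins that tune adhesion and repair. Elastin is deposited on fibrillin microfibrils, and lysyl oxidases crosslink elastin and collagen outside the cell. Decorin and lumican are small leucine-rich proteoglycans that bind collagen fibrils and regulate their width. Fibroblasts are the main source of most of these proteins in skin.

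In GRCm38 the genes lie on separate chromosomes with 1 exception. Fn1 (ENSMUSG00000026193) spans chr1:71585520-71653200 on the minus strand, Sparc (ENSMUSG00000018593) chr11:55394500-55423183 on the minus strand, Postn (ENSMUSG00000027750) chr3:54361109-54391037 on the plus strand, and Tnc (ENSMUSG00000028364) chr4:63959785-64047015 on the minus strand. Eln (ENSMUSG00000029675) spans chr5:134702593-134747323 and Fbn1 (ENSMUSG00000027204) chr2:125300594-125507993, both on the minus strand. Lox (ENSMUSG00000024529) spans chr18:52516067-52529867 and Loxl1 (ENSMUSG00000032334) chr9:58287738-58313186, both on the minus strand. Dcn (ENSMUSG00000019929, chr10:97479609-97518143) and Lum (ENSMUSG00000036446, chr10:97565128-97572703) lie near each other on the plus strand of chromosome 10. All are protein coding. The share of a gene's 31-base words that also occur in transcripts of another gene was at most 1.87%, in Fn1.

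RefSeq promoter windows (GRCm38.p6) ran from 250 bases before to 50 after an annotated start. They were examined for 4 of the 10 genes: Fbn1, Postn, Tnc and Sparc. Windows of the other genes, Lox among them, were not examined. A window is shown for Tnc and Sparc, which had 2 of the 4 widest ranges between groups, and for Postn, which fell most in AEG 3482 and Cardamonin. In these windows capitals mark the only matches to 6 motifs searched on both strands; no match overlapped another.

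Tnc, chr4:64046966-64047265, minus strand: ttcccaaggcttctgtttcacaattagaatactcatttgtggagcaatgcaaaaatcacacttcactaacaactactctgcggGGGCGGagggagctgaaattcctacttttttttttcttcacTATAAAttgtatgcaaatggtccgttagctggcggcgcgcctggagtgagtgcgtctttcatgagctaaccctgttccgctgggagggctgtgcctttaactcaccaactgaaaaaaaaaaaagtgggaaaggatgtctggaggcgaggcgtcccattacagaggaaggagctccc

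Sparc, chr11:55420031-55420330, minus strand: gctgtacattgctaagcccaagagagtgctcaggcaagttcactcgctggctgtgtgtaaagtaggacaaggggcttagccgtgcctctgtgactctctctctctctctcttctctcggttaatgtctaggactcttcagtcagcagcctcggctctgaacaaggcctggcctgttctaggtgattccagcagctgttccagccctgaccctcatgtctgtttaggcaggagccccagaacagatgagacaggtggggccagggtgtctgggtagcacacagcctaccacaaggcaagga

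Postn, chr3:54360857-54361156, plus strand: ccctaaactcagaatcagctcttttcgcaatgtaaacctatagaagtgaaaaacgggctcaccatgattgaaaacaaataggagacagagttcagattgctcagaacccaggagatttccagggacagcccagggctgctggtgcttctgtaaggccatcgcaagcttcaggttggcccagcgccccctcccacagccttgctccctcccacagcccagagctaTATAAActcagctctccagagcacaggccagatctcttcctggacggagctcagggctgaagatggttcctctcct

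In the Tnc window shown, the GC box letters GGGCGG stand at 167 bases and the TATA box letters TATAAA at 126 bases before the start (positions -167 and -126). Another Tnc window (chr4:64046887-64047186, minus strand) overlaps it and holds the same letters at positions -246 and -205 from its own start. In the Postn window TATAAA stands at position -26, and the Sparc window holds none of the motifs. The Sparc window and the Fbn1 window below lie inside their genes, downstream of where the gene spans given above begin. They therefore do not cover the letters before those beginnings. A further Postn window (chr3:54359017-54359316, plus strand) holds 1 match to the antioxidant response element core at position -138, and the Fbn1 window (chr2:125506389-125506688, minus strand) holds GGGCGG at position -185. Of 32851 promoter windows of this length, 35.7% hold GGGCGG and 13.6% hold TATAAA. The other motifs searched were TGANTCA (AP-1), in 7.81% of windows, GGAATG (TEAD), in 14.7%, TGACNNNGC (the core of the antioxidant response element), in 12.4%, and GTCTAGAC (a SMAD palindrome), in 0.213%. A match describes letters in a window and is no evidence of binding.

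Levels are given in TPM, a scale that corrects for the length of each transcript and is relative to all RNA of the same library, so that genes can be compared. Sequencing depth is unknown from TPM. Fn1 was the most abundant of the genes in DMSO, at 4776 ± 563 TPM (SD, n = 6), rank 13 of the 13644 genes tested. Sparc (2171 ± 129), Lox (1628 ± 137), Dcn (1472 ± 54.4) and Postn (1377 ± 191) followed, then Lum (308 ± 25.1), Loxl1 (163 ± 10.2), Tnc (155 ± 10.4) and Fbn1 (141 ± 14.6). Eln stood apart at 1.28 ± 0.455 TPM, rank 12295. In DMSO the genes together made up 1.30% of all listed TPM (12193 ± 654 TPM, n = 6), against 0.529% in Cardamonin (4910 ± 911 TPM, n = 3).

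Of 80 comparisons of a gene in a compound with DMSO, 50 passed an adjusted p of 0.05, 46 of them lower and 4 higher in the compound. The test was limma on log2(TPM + 1) with Benjamini-Hochberg adjustment over the 13644 genes of a comparison, and all fold changes below are on that scale, which understates changes of genes near 1 TPM. Cardamonin lowered all 10 genes (70.3% of all tested genes passed there, 33% in the lower direction). Antimycin A lowered 8 of 10 (37.3% of all genes passed, 15.5% lower). AEG 3482 lowered 7 and raised 1 (68.1% passed, 26.8% lower and 41.3% higher). Clofilium tosylate lowered 6 (23.4% passed, 12.5% lower) and BerberineA lowered 5 (21.7% passed, 9.16% lower). Diphenyleneiodonium Cl lowered 4 and raised 1 (25.7% passed, 11.7% lower and 14% higher), Podofilox lowered 3 and raised 2 (46.2% passed, 20% lower and 26.2% higher), and Dihydrorotenone lowered 3 (14.4% passed, 9.43% lower).

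Counted by the libraries themselves, every library of the compound lay below every DMSO library for 10 of the 10 genes in Cardamonin (28.7% of all tested genes), 7 in Clofilium tosylate (11.2%), 7 in Antimycin A (13%), 5 in AEG 3482 (22.8%) and 5 in BerberineA (8.56%). The same held for 4 genes in Diphenyleneiodonium Cl (11.3%), 4 in Dihydrorotenone (9.87%) and 3 in Podofilox (16.7%). Every library lay above every DMSO library for 3 genes in Podofilox (21.7%), 1 in Diphenyleneiodonium Cl (13.3%) and 1 in AEG 3482 (36.1%).

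Taken in both directions together, the count in AEG 3482 (8) and that in Podofilox (5) lie near their backgrounds and are no result about these genes. By direction, AEG 3482 had 70% of the 10 genes lower against 26.8% of all genes, and 10% higher against 41.3%. Podofilox had 30% lower against 20% and 20% higher against 26.2%. The median log2 fold change of the 10 genes was -1.63 in Cardamonin, -0.58 in Antimycin A, -0.45 in AEG 3482, -0.39 in Clofilium tosylate, -0.33 in BerberineA, -0.26 in Dihydrorotenone, -0.25 in Diphenyleneiodonium Cl and -0.13 in Podofilox. Over all tested genes the medians lay between -0.03 (Dihydrorotenone) and 0.10 (AEG 3482). All 8 comparisons share the DMSO libraries and are therefore not independent of each other.

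**Figure D1:**
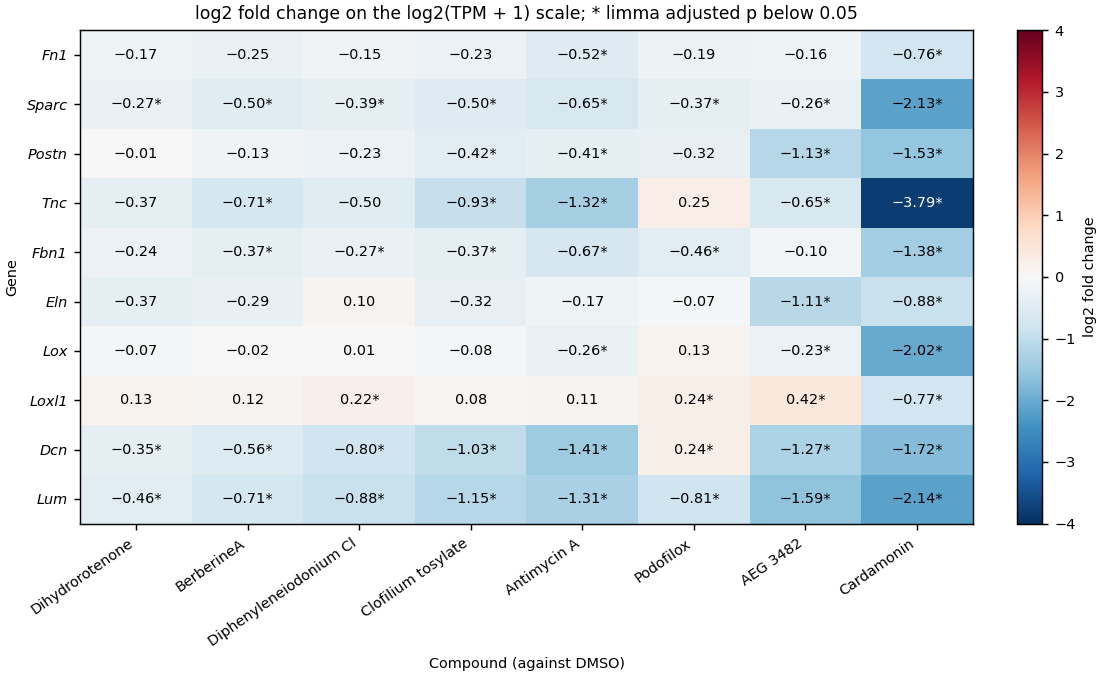
Log2 fold change of each gene (rows) in each compound against DMSO (columns), on the log2(TPM + 1) scale, with color from blue (lower) to red (higher) and an asterisk at a limma adjusted p below 0.05. The Cardamonin column is lower for all 10 genes, from -0.76 (Fn1) to -3.79 (Tnc), and the 4 asterisks on positive values are Loxl1 in Diphenyleneiodonium Cl, Podofilox and AEG 3482 and Dcn in Podofilox.

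Both proteoglycans responded to every compound. Dcn, which encodes decorin, passed the test in all 8 compounds, lower in 7 and higher in Podofilox, and Lum, which encodes lumican, was lower in all 8. In bulk RNA, fewer cells that express a gene and less of its RNA per cell cannot be told apart, here and below.

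Dcn ranged from 1390.0 to 1526 TPM in the 6 DMSO libraries, with a median of 1485. It read 1145, 1132 and 1187 TPM in the Dihydrorotenone libraries, 1012, 1003 and 985 in BerberineA, 871, 809 and 857 in Diphenyleneiodonium Cl, and 754, 691 and 721 in Clofilium tosylate. In Antimycin A it read 531, 536 and 595 TPM, in AEG 3482 649, 591 and 585, and in Cardamonin 486, 531 and 344. Every library of these 7 compounds lay below every DMSO library. The log2 fold changes ran from -0.35 ± 0.08 (SE; adjusted p = 0.00332) in Dihydrorotenone through -1.03 ± 0.08 in Clofilium tosylate and -1.41 ± 0.08 in Antimycin A to -1.72 ± 0.08 (adjusted p = 2.89e-16) in Cardamonin. Podofilox went the other way, with 1719, 1781 and 1727 TPM, all above the highest DMSO library, and a log2 fold change of 0.24 ± 0.08 (adjusted p = 0.0124). With DMSO replicates 4 to 6 as the only controls, that rise had an adjusted p of 0.0545.

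Lum ranged from 279 to 342 TPM in DMSO, with a median of 309.5. Its lowest levels were 72, 75.4 and 60.0 TPM in Cardamonin and 112, 95.8 and 95.6 TPM in AEG 3482, with log2 fold changes of -2.14 ± 0.07 and -1.59 ± 0.07. Antimycin A gave 119, 129 and 123 TPM (-1.31 ± 0.07) and Clofilium tosylate 148, 130.4 and 135 TPM (-1.15 ± 0.07). No library of any compound reached the DMSO range, and the remaining 4 compounds gave -0.46 (Dihydrorotenone), -0.71 (BerberineA), -0.81 (Podofilox) and -0.88 (Diphenyleneiodonium Cl). The 3 Podofilox libraries, at 171, 183 and 170.1 TPM, lay below the DMSO range for Lum although they lay above it for Dcn.

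Neighbouring groups in the order of levels were compared within the same fit. For Dcn, 4 of the 8 neighbouring pairs differed. Podofilox lay above DMSO and DMSO above Dihydrorotenone. Clofilium tosylate lay above AEG 3482 (log2 difference 0.25, adjusted p = 0.0190), and Antimycin A above Cardamonin (0.31, adjusted p = 0.00415). In that last pair the libraries overlapped, with Cardamonin replicate 2 at 531.4 TPM and Antimycin A replicate 1 at 531.1 TPM. Cardamonin replicate 3 read 344 TPM, and the log2 SD was 0.33 in Cardamonin and 0.09 in Antimycin A. The fit pools the spread of all groups, so this pair is not firmly resolved. For Lum, 3 pairs differed: DMSO above Dihydrorotenone, Antimycin A above AEG 3482 (0.29, adjusted p = 0.00267) and AEG 3482 above Cardamonin (0.55, adjusted p = 1.87e-06). Over the 10 genes 17 of 80 neighbouring pairs differed, and most of the middle of each order is not resolved by 3 libraries a group.

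The ratio of Dcn to Lum within a library does not depend on how libraries are scaled. It was 4.31 to 5.41 in DMSO (mean 4.80 ± 0.372, SD, n = 6) and 9.73 to 10.2 in Podofilox (9.98 ± 0.222, n = 3), a log2 difference of 1.05. The ratio was 5.73 to 7.05 in Cardamonin and 5.77 to 6.17 in AEG 3482, also above every DMSO library (log2 differences of 0.42 and 0.32). In each of these 3 compounds the exact two-sided permutation test over the 84 arrangements of 9 libraries gave p = 0.0119, the smallest p this design allows, or 0.0381 adjusted over 16 ratio tests. The pairs of genes were chosen after their values were seen. In the other 5 compounds the mean ratio lay between 4.49 (Antimycin A) and 5.33 (BerberineA), and no test passed (adjusted p between 0.171 and 0.357), although Dcn and Lum were each lower there.

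**Figure D2:**
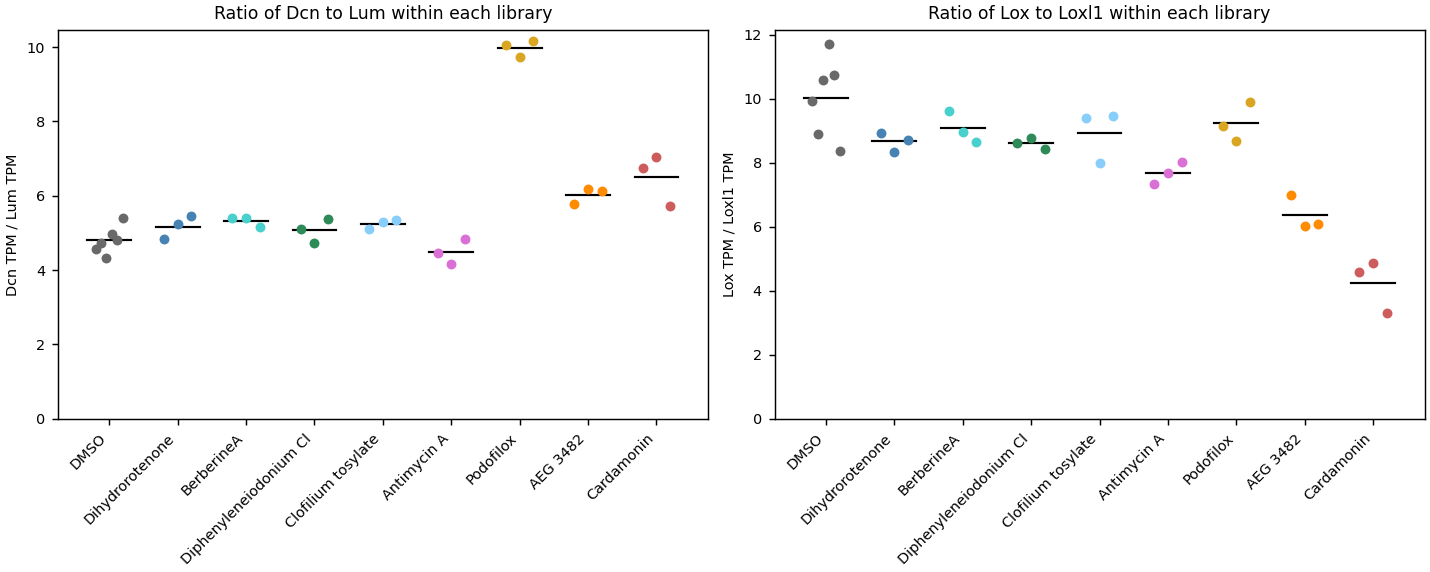
Ratio of Dcn to Lum TPM (left) and of Lox to Loxl1 TPM (right) in every library, by group; points are libraries, bars are group means, and the linear axes start at 0. Podofilox sits at 9.73 to 10.2 on the left against 4.31 to 5.41 in DMSO, and Cardamonin at 3.32 to 4.88 on the right against 8.36 to 11.7 in DMSO.

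Among the glycoproteins, in the fit of all groups, Sparc was lower in all 8 compounds, Tnc in 5, Postn in 4 and Fn1 in 2.

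Sparc encodes SPARC (osteonectin), a collagen-binding matricellular protein. It ranged from 1966 to 2338 TPM in DMSO, with a median of 2164. Cardamonin gave 527, 613 and 371 TPM, a log2 fold change of -2.13 ± 0.09 (adjusted p = 4.86e-17). Antimycin A gave 1370.4, 1353 and 1419.5 TPM (-0.65 ± 0.09). BerberineA, Clofilium tosylate, Diphenyleneiodonium Cl and Podofilox gave -0.50, -0.50, -0.39 and -0.37, and the libraries of these 6 compounds all lay below the DMSO range. AEG 3482 gave 2009.8, 1743 and 1699 TPM (-0.26 ± 0.09, adjusted p = 0.0130), with 1 library inside the DMSO range. Dihydrorotenone gave 1732, 1835 and 1812 TPM (-0.27 ± 0.09, adjusted p = 0.0395), also below every DMSO library. Without Dihydrorotenone replicate 1, 2 or 3 the adjusted p was 0.151, 0.0848 and 0.0867. This call was lost in 13 of 21 alternative fits. The AEG 3482 value was not called without AEG 3482 replicate 2 (adjusted p = 0.0583) or replicate 3 (0.0782), nor after quantile normalization (0.278).

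Tnc encodes tenascin C, a glycoprotein of healing and remodelling tissue, and had the widest range of group means, 4.04 on the log2 scale. It ranged from 143 to 167 TPM in DMSO, with a median of 154. The Cardamonin libraries read 11.1, 19.96 and 4.62 TPM, which is 7.68% of the DMSO mean (-3.79 ± 0.21, adjusted p = 1.03e-14). Without Cardamonin replicate 3 the Tnc value was -3.29. The log2 SD of Tnc was 0.954 in Cardamonin against 0.097 in DMSO. The SE above pools the spread of all groups and is too narrow for Cardamonin. In a fit of only Cardamonin and DMSO the adjusted p for Tnc was 2.05e-06. Antimycin A gave 63.8, 54.8 and 66.1 TPM (-1.32 ± 0.21), Clofilium tosylate 82.5, 82.5 and 77.2 TPM (-0.93 ± 0.21), and AEG 3482 105, 97.4 and 93.7 TPM (-0.65 ± 0.21). BerberineA gave 82.8, 95.8 and 106 TPM (-0.71 ± 0.21, adjusted p = 0.0136), with an adjusted p of 0.0750 without BerberineA replicate 1.

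The Tnc libraries of Dihydrorotenone (107, 127 and 125 TPM) and Diphenyleneiodonium Cl (105, 104 and 119 TPM) also lay below every DMSO library, and those of Podofilox (194, 181 and 179 TPM) above every one. In the fit of all groups these 3 differences did not pass (adjusted p = 0.252, 0.0778 and 0.334). In fits of only the compound and DMSO, which leave out the wide spread of the Cardamonin libraries, Tnc gave adjusted p = 0.0160 in Dihydrorotenone (-0.37), 0.000684 in Diphenyleneiodonium Cl (-0.50) and 0.00654 in Podofilox (0.25).

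Postn encodes periostin, a matricellular protein that binds collagen and fibronectin and takes part in collagen assembly. It ranged from 1100.2 to 1636 TPM in DMSO, with a median of 1337. AEG 3482 gave 692, 610.5 and 572 TPM (-1.13 ± 0.13, adjusted p = 3.22e-08) and Cardamonin 549, 571 and 334 TPM (-1.53 ± 0.13, adjusted p = 9.84e-11). The libraries of both lay below the DMSO range. Antimycin A gave -0.41 ± 0.13 (adjusted p = 0.0166) and Clofilium tosylate -0.42 ± 0.13 (adjusted p = 0.0220). The first was not called without Antimycin A replicate 1 (adjusted p = 0.0613) or 2 (0.0982), nor the second without Clofilium tosylate replicate 2 (0.151). The Dihydrorotenone libraries, at 1188, 1376 and 1532 TPM, lay inside the DMSO range (-0.01, 95% confidence interval -0.28 to 0.26).

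Fn1 encodes fibronectin and had the narrowest range of group means, 0.76 on the log2 scale. It ranged from 4219.8 to 5560.2 TPM in DMSO, with a median of 4659.7. Only Cardamonin (2909.7, 3214 and 2360.5 TPM, -0.76 ± 0.10) and Antimycin A (3456, 3000.1 and 3538 TPM, -0.52 ± 0.10) lowered it in this fit, with adjusted p of 1.44e-07 and 0.000142. The other 6 compounds gave Fn1 values from -0.15 (Diphenyleneiodonium Cl) to -0.25 (BerberineA), with adjusted p from 0.0671 to 0.266. With median-ratio scaling of the libraries, Fn1 was also called lower in BerberineA (-0.28), AEG 3482 (-0.27) and Podofilox (-0.22), and with quantile normalization in Dihydrorotenone (-0.34).

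**Figure D3:**
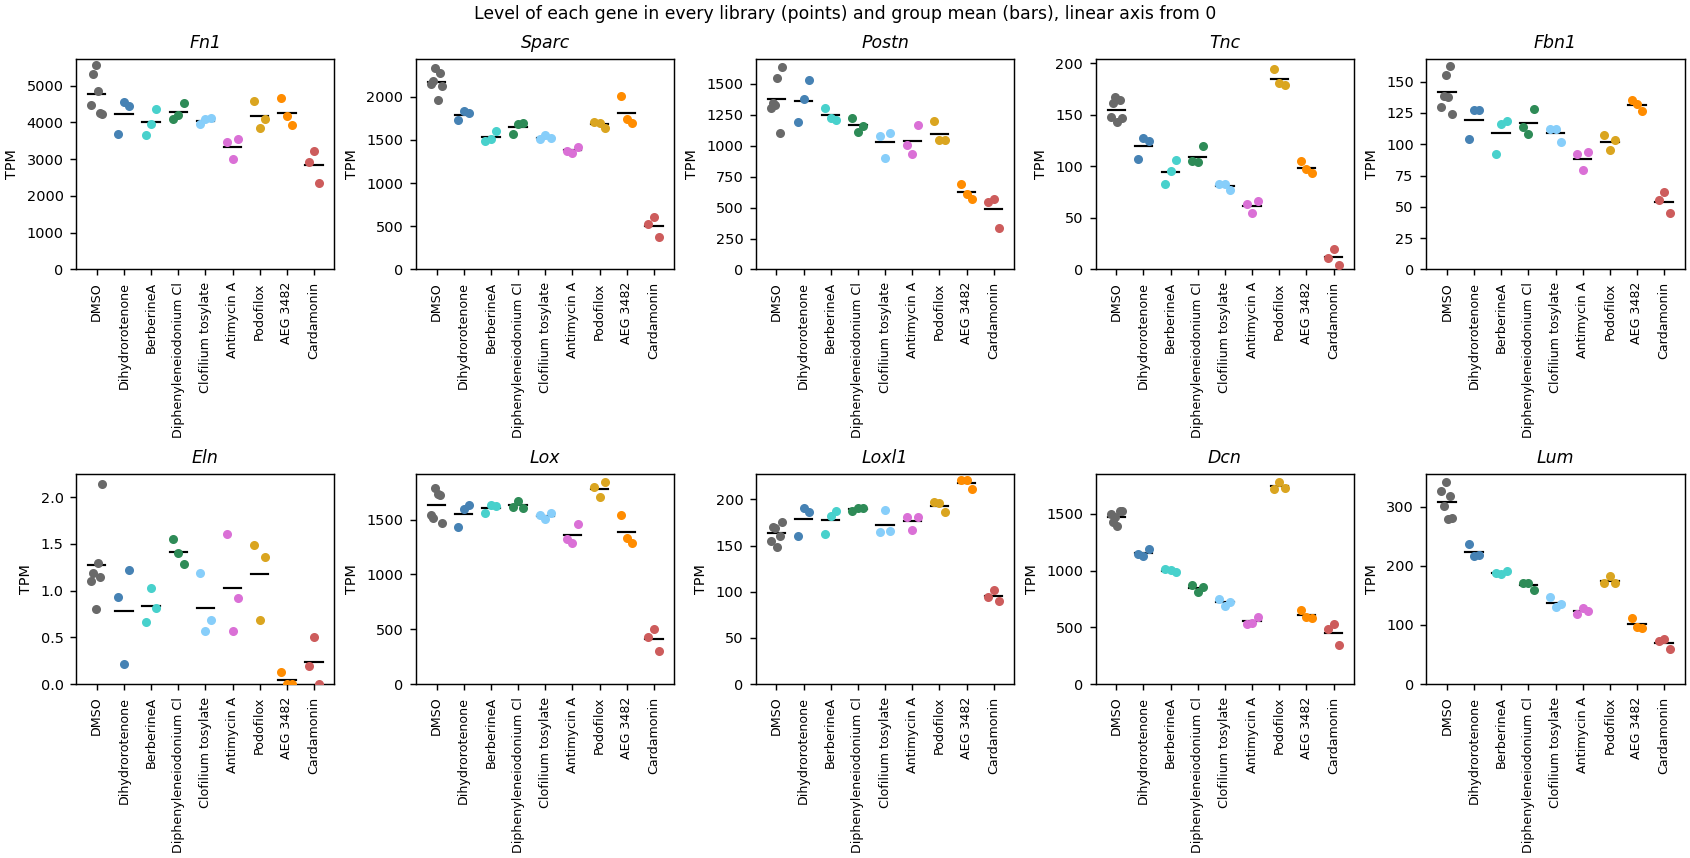
TPM of each of the 10 genes in every library (points) with group means (bars), on linear axes that start at 0. The Cardamonin libraries are the lowest group for every gene except Eln, the Tnc points there read 4.62 to 19.96 TPM against 143 to 167 in DMSO, and the Dcn points of Podofilox (1719 to 1781 TPM) lie above those of DMSO.

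Of the elastic fibre genes, Fbn1 was lower in 6 compounds and Eln in 2. Fbn1 encodes fibrillin-1, the main microfibril protein, and ranged from 124 to 162 TPM in DMSO, with a median of 138. Cardamonin gave 55.5, 61.6 and 44.9 TPM (-1.38 ± 0.10, adjusted p = 2.16e-12), Antimycin A 92.4, 79.1 and 93.6 TPM (-0.67 ± 0.10) and Podofilox 107, 95.2 and 104 TPM (-0.46 ± 0.10). These libraries all lay below the DMSO range, as did those of BerberineA and Clofilium tosylate (-0.37 each). The BerberineA value was not called without BerberineA replicate 1 (adjusted p = 0.0868). Diphenyleneiodonium Cl gave -0.27 (adjusted p = 0.0424), with libraries at 114, 108 and 128 TPM that overlap DMSO, and 0.191 without its replicate 2. AEG 3482 left Fbn1 at 135, 132 and 126 TPM, inside the DMSO range (-0.10, 95% confidence interval -0.30 to 0.10), but Fbn1 was called lower there with median-ratio scaling (-0.21, adjusted p = 0.0293) and with quantile normalization (-0.26, adjusted p = 0.0152).

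Eln encodes tropoelastin, the soluble precursor of elastin, and was the least abundant of the 10 genes. It ranged from 0.797 to 2.14 TPM in DMSO, with a median of 1.17. AEG 3482 listed it at 0.128, 0 and 0 TPM (-1.11 ± 0.19, adjusted p = 1.30e-05) and Cardamonin at 0.198, 0.4998 and 0 TPM (-0.88 ± 0.19, adjusted p = 0.000198). Both sets lay below every DMSO library. An exact 0 in such a table can be a failed estimate, so no fold in TPM is given. The other 6 compounds gave values from -0.37 to 0.10, none called, with single libraries from 0.215 to 1.61 TPM.

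The lysyl oxidases differed from each other. Lox, which encodes the founding enzyme of the family, ranged from 1464 to 1786 TPM in DMSO, with a median of 1634. Cardamonin took it to 430.0, 498 and 299 TPM, 25.1% of the DMSO mean (-2.02 ± 0.10, adjusted p = 1.03e-15). Smaller falls in Antimycin A (1325, 1284 and 1456 TPM, -0.26, adjusted p = 0.0363) and AEG 3482 (1543, 1334 and 1287 TPM, -0.23, adjusted p = 0.0400) were lost in many alternative fits, for example at an adjusted p of 0.0719 and 0.0787 without DMSO replicate 3. The other 5 compounds gave Lox values between -0.08 and 0.13, none called.

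Loxl1, which encodes an oxidase needed to maintain elastic fibres, ranged from 148 to 175 TPM in DMSO, with a median of 165. AEG 3482 raised it to 221, 221 and 212 TPM (0.42 ± 0.06, adjusted p = 1.10e-06), Podofilox to 197, 196 and 186 TPM (0.24 ± 0.06, adjusted p = 0.00161) and Diphenyleneiodonium Cl to 187, 191 and 190.1 TPM (0.22 ± 0.06, adjusted p = 0.00921). All 9 of these libraries lay above every DMSO library. Cardamonin lowered it to 94.0, 102 and 89.98 TPM (-0.77 ± 0.06, adjusted p = 1.87e-11). The remaining 4 compounds gave Loxl1 values from 0.08 to 0.13, none called.

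The ratio of Lox to Loxl1 was 8.36 to 11.7 in DMSO (mean 10.0 ± 1.25, SD, n = 6). It was 3.32 to 4.88 in Cardamonin and 6.03 to 6.98 in AEG 3482, in both below every DMSO library, with log2 differences of -1.25 and -0.65. The exact permutation test gave p = 0.0119 for each, or 0.0381 adjusted over the 16 ratio tests. In Antimycin A the ratio of 7.33 to 8.03 lay below the DMSO range too but did not pass (exact p = 0.0238, adjusted 0.0635). In the other 5 compounds the adjusted p ran from 0.171 to 0.357.

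Cardamonin and AEG 3482 changed the most genes in the experiment, and the 10 genes differed between them. In the direct comparison 9 of 10 were higher in AEG 3482, and Eln was not called. Of all genes 55.3% passed there, counted in both directions together, and the share higher is not given here. The log2 differences were 3.14 for Tnc, 1.88 for Sparc, 1.79 for Lox, 1.28 for Fbn1 and 1.19 for Loxl1, against 0.60 for Fn1, 0.55 for Lum, 0.44 for Dcn and 0.40 for Postn. Dcn, Lum and Postn were thus low in both compounds, whereas Sparc, Lox, Fbn1 and Loxl1 stood at 83.7%, 85.3%, 92.8% and 134% of the DMSO mean in AEG 3482 and at 23.2%, 25.1%, 38.2% and 58.5% in Cardamonin. Cardamonin replicate 3 was the lowest of its 3 libraries for every one of the 10 genes. Without it all 10 were still called, for example Lum at -2.04, Sparc at -1.93, Lox at -1.81 and Dcn at -1.53. The Cardamonin libraries spread more than the pooled SE allows for, with log2 SDs of 0.43 (Postn), 0.38 (Lox), 0.37 (Sparc) and 0.33 (Dcn). In fits of only Cardamonin and DMSO the adjusted p was 2.25e-05 for Postn, 5.93e-07 for Lox, 2.61e-07 for Sparc and 4.38e-07 for Dcn.

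Antimycin A and Dihydrorotenone also differed. In the direct comparison 6 of the 10 genes were higher in Dihydrorotenone than in Antimycin A, and 0 were lower. Of all genes 15.5% passed, counted in both directions together, and the share higher is not given here. The log2 differences were 1.06 for Dcn, 0.95 for Tnc, 0.85 for Lum, 0.43 for Fbn1, 0.38 for Sparc and 0.34 for Fn1. Doses are unknown, so these are differences between 2 treatments as given.

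Over the 9 group means, the genes whose patterns were closest to each other were Fbn1 and Sparc (Pearson r 0.97), Fn1 and Fbn1 (0.96), Sparc and Tnc (0.96), and Tnc and Lox (0.96). Lum was closest to Postn (0.93), ahead of Dcn (0.86), and Eln and Loxl1 were least alike (0.26). These correlations are a description over 9 points that share the same libraries, the low Cardamonin ones among them. Among 10241 candidate genes, the nearest pattern to Sparc was that of Emilin2 (0.99), to Fbn1 that of Sufu and of Col5a1 (0.995 and 0.988), to Postn that of Htra1 (0.99), to Lox that of Anxa6 (0.99), and to Lum that of Plagl1 (0.98).

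The wider matrix programme was read from 5 lists with 88 other genes, of which 83 were tested: elastic fibre parts, crosslinking and collagen-processing enzymes, proteoglycans, glycoproteins and matrix receptors. In Cardamonin 60 of the 83 were lower and 12 higher, with a median of -0.80 against 0.03 over all genes. Antimycin A had 44 lower and 12 higher, AEG 3482 44 and 24, Podofilox 42 and 21, and Clofilium tosylate 37 and 7. Diphenyleneiodonium Cl had 27 lower and 13 higher, BerberineA 23 and 9, and Dihydrorotenone 20 and 6. In both directions together, 67.5% of the 83 were called in Antimycin A against 37.3% of all tested genes, 86.7% against 70.3% in Cardamonin and 75.9% against 46.2% in Podofilox. The share called higher was 14.5% against 37.3% of all genes in Cardamonin, 28.9% against 41.3% in AEG 3482 and 25.3% against 26.2% in Podofilox, at or below the background. The share called lower in these compounds was 72.3% against 33%, 53.0% against 26.8% and 50.6% against 20%. In Antimycin A 53.0% were lower against 15.5% of all genes, and 14.5% higher against 21.8%. Clofilium tosylate had 44.6% against 12.5% lower and 8.43% against 10.9% higher. BerberineA had 27.7% against 9.16% lower and 10.8% against 12.6% higher. Diphenyleneiodonium Cl had 32.5% against 11.7% lower and 15.7% against 14.0% higher. Dihydrorotenone had 24.1% against 9.43% lower and 7.23% against 4.95% higher.

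Of the 10 other proteoglycans tested, 9 were lower in Cardamonin, 8 in Podofilox and 6 each in Antimycin A and AEG 3482. The shares lower over all genes were 33%, 20%, 15.5% and 26.8% in these compounds. Prelp, a proteoglycan of the same leucine-rich family, fell from 377 ± 63.9 TPM (n = 6) to 113 TPM in Podofilox (-1.71), where Lum was lower and Dcn higher. Aspn, which encodes asporin, fell from 41.4 to 1.39 TPM in Cardamonin (-4.14).

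Of the 15 other elastic fibre genes, 12 were lower in Cardamonin, 10 in AEG 3482 and 9 in Podofilox. The shares lower over all genes were 33%, 26.8% and 20% there. Mfap2, a microfibril partner of fibrillin, fell from 126 to 11.7 TPM in Cardamonin (-3.46) and to 46.1 TPM in AEG 3482 (-1.44), where Fbn1 was not called. Efemp1, which encodes fibulin-3, had the largest fall of its list in 6 compounds, among them Podofilox (419.7 to 134 TPM, -1.63) and Antimycin A (to 205 TPM, -1.03).

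Among the 15 other crosslinking and processing enzymes, 11 were lower in each of Antimycin A, Clofilium tosylate and Cardamonin. The shares lower over all genes were 15.5%, 12.5% and 33% there. P4ha3, a collagen prolyl hydroxylase subunit, fell from 27.7 to 2.77 TPM in Cardamonin (-2.97). Podofilox instead had 7 higher (46.7% against 26.2% of all genes) and 4 lower (26.7% against 20%), the latter near the background. Plod2, a lysyl hydroxylase that prepares collagen for crosslinking, rose from 87.9 to 136 TPM in Cardamonin (0.63) and to 121 TPM in AEG 3482 (0.46), where Lox and Loxl1 went different ways.

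Among 27 other glycoproteins, Ccn2 (connective tissue growth factor) fell from 128 ± 22.9 TPM to 2.10 TPM in Cardamonin (-5.51), 7.16 TPM in AEG 3482 (-3.96) and 32.2 TPM in Antimycin A (-1.94). Thbs1 (thrombospondin 1) fell from 792 to 158 TPM in Podofilox (-2.31), and Nid1 (nidogen 1) rose from 90.2 to 229 TPM in AEG 3482 (1.34). Of the 16 receptors, Itgb3, the integrin beta subunit that pairs in receptors for fibronectin and periostin, rose from 4.02 TPM to 16.6 TPM in Cardamonin (1.81), 17.1 TPM in Podofilox (1.85) and 13.9 TPM in Antimycin A (1.56). Itga11, a collagen receptor subunit, fell from 52.8 to 3.66 TPM in Cardamonin (-3.60), and Itga1 from 10.3 to 2.76 TPM in AEG 3482 (-1.57).

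**Figure D4:**
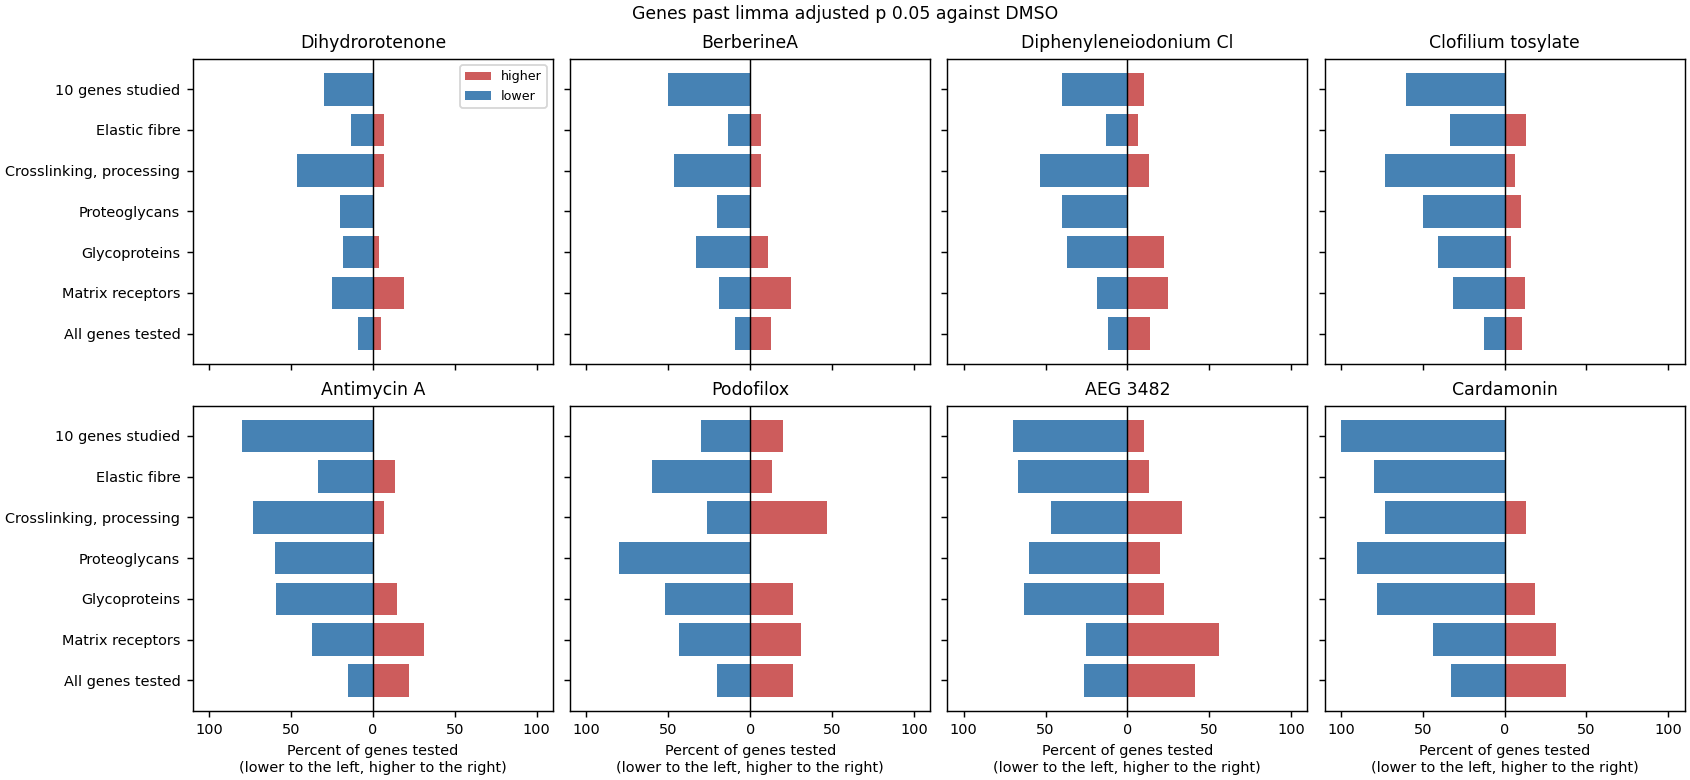
Percent of tested genes called lower (blue, to the left) or higher (red, to the right) against DMSO, by compound, for the 10 genes studied, the 5 lists of other matrix genes and all genes tested. In Cardamonin the bars of the 10 genes (10 lower) and of the proteoglycans (9 of 10 lower) reach furthest to the left, against 33% of all genes. Podofilox has 7 of 15 crosslinking and processing genes higher, against 26.2% of all genes.

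The labelled cell type was checked against its markers. All 9 fibroblast markers reached 1 TPM, with summed levels of 3436 to 11454 TPM over the 30 libraries. In Cardamonin all 9 were lower than in DMSO (33% of all genes were lower there). The sums were 3436 to 4261 TPM against 8138 to 9540 TPM, so the matrix genes there fell along with the whole marker list. That list holds the collagen genes Col1a1, Col1a2 and Col3a1, so it is no separate check of cell identity. These genes and Vim made up most of the sum, with medians of 878, 1486, 1940 and 3106 TPM. The next highest median was 197 TPM (Pdgfra). In Antimycin A the sums were 7058 to 7783 TPM and in Podofilox 7335 to 7543 TPM, also below every DMSO library. There 7 and 6 markers were lower, against 15.5% and 20% of all genes. In AEG 3482 the sums were 10155 to 11454 TPM, above every DMSO library, although 5 markers were lower and 2 higher. The sum thus follows its most abundant genes. Of all genes, 26.8% were lower and 41.3% higher in AEG 3482. The keratinocyte marker Krt5 and the muscle markers Myod1 and Myh4 were at 0 in every library, and no adipocyte marker reached 1 TPM. Summed levels of the other lists stayed low: at most 9.82 TPM for 5 endothelial genes, 16.7 for 6 leukocyte genes, 14.4 for 5 smooth muscle genes, 7.87 for 5 chondrocyte genes and 21.2 for 6 Schwann cell or melanocyte genes.

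The smooth muscle sum was 9.52 to 14.4 TPM in DMSO, 1.16 to 1.41 in Cardamonin and 1.43 to 1.86 in AEG 3482. It was 2.67 to 3.07 TPM in Podofilox and 4.68 to 6.01 in Antimycin A. The leukocyte sum was 13.1 to 16.7 TPM in DMSO and lower in all 24 treated libraries, at 3.26 to 3.69 in Cardamonin, 3.77 to 4.68 in Antimycin A, 4.10 to 5.26 in AEG 3482 and 6.48 to 11.1 in the other 5 compounds. The endothelial sum was 6.13 to 9.82 TPM in DMSO, 2.23 to 2.93 in Cardamonin and 2.40 to 2.55 in AEG 3482. The Schwann cell or melanocyte sum was 8.55 to 10.9 TPM in DMSO, 19.4 to 21.2 in Antimycin A, 4.58 to 5.92 in Cardamonin and 4.02 to 4.69 in AEG 3482. These sums leaned on single genes: over the 30 libraries Mlana reached 17.0 TPM, Adgre1 12.1 TPM and Tek 8.18 TPM. Other markers of the same lists stayed low, at most 0.294 TPM for Sox10, 0.0468 for Dct and 0.876 for Ptprc. For Pecam1 and Cdh5 the highest values were 0.804 and 0.0300 TPM. A shift in a sum is therefore no measure of how many such cells were present. The part of these shifts in the matrix results was not tested.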

How the data were processed

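Total RNA of 30 libraries was extracted with RNAzol, depleted of ribosomal RNA and sequenced on a HiSeq4000, per the labels' protocols. The authors deposited TPM per gene, made with kallisto 0.43.1, per the submitters' processing notes, and tximport, per the series text, which also names DESeq2 for the authors' own tests. The transcript index is not given in the sources used here. Listed genes summed to 927024 to 937134 TPM per library, so the total includes features not listed, and 12229 to 12700 genes reached 1 TPM. The series text speaks of 5 DMSO replicates, while the labels name 6, all used here.

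Gene identifiers were matched to GENCODE M21 (GRCm38), with symbols for 29426 of 29861 genes (98.5%). TPM was transformed to log2(TPM + 1), and a gene was tested if 3 libraries or more had at least 1 TPM (13644 genes). All 30 libraries were fitted with limma 3.58.1 in R 4.3.3, 1 mean per group with an intensity trend, adjusted by Benjamini-Hochberg within a comparison at 0.05. The script was tested on simulated data. Ratios of 2 genes were compared by exact two-sided permutation tests over libraries.

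The 10 genes, the gene lists and the tests were chosen with earlier results of these data known. From each list and compound the text may name the gene with the largest rise and the largest fall among those past the threshold whose mean reached 5 TPM in either group, with every treated library outside the DMSO range. It may also name, for each of the 10 genes, the 2 genes with the most similar group means. The ratio tests and the AEG 3482 against Cardamonin comparison with its alternatives were chosen after seeing the data. Other alternatives were pseudocounts of 0.1 and 5, other filters and scalings, 2-group fits, a replicate block, subsets of DMSO libraries and leaving out each library.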

Additional observations from a re-analysis of the deposited data

Results flagged for a closer look

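Within DMSO, 1 level stood apart from the rest of its group. Eln in DMSO replicate 6 read 2.14 TPM, and its gap to the nearest of the other 5 DMSO libraries was 0.632 of the whole range, above the critical value of 0.625 for 6 libraries. Chance flags about 1 in 20 groups, and the highest and lowest DMSO library of 10 genes were examined. The compound groups, of 3 libraries each, were not examined in this way.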

How the results depend on the processing

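No result reversed direction. Across the alternatives and left-out libraries, the number of the 10 genes called moved by over 1.5 times once: 3 in BerberineA without BerberineA replicate 1, against 5 (3 to 6 over left-out libraries). Of the other matrix genes, 26 were called in Dihydrorotenone, but 13 in the fit of only the compound and DMSO, 11 with DMSO replicates 4 to 6 only, and 13 to 26 over left-out libraries (13 without Dihydrorotenone replicate 1, 17 without replicate 2). The cause was not tested. AEG 3482 had 6 to 10 of the 10 genes called, against 8. With a filter of a mean of 5 TPM Eln was left out and has no value. The ordering gave 14 to 20 resolved neighbouring pairs, against 17, and the comparison of AEG 3482 with Cardamonin 8 to 9 genes. Among 1672 alternative values of the 80 gene comparisons, 24 changed sign, each uncalled before and after.

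The replicate number did not pair libraries (median correlation of deviations 0.00799 for the same number, 0.000813 for different numbers). With a replicate block, 6 genes were called in Antimycin A, 2 in Dihydrorotenone, 4 in Diphenyleneiodonium Cl, 10 in Cardamonin, 6 in BerberineA, 6 in Clofilium tosylate, 8 in AEG 3482 and 6 in Podofilox. Under the block, Fn1 gained a call in BerberineA, Clofilium tosylate, AEG 3482 and Podofilox. Calls were lost for Postn (adjusted p = 0.0574) and Lox (0.118) in Antimycin A, Sparc in Dihydrorotenone (0.0677), Fbn1 in Diphenyleneiodonium Cl (0.0949), Postn in Clofilium tosylate (0.0726) and Lox in AEG 3482 (0.120).

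Depth is unknown, and 3 libraries a group limit the precision. Falls near 0.25 on the log2 scale (Lox in Antimycin A and AEG 3482, Sparc in Dihydrorotenone, Fbn1 in Diphenyleneiodonium Cl) passed or missed the threshold with the setting.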
